A study of Mus musculus with 20 samples.

Results

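Mt1, which encodes the metal-binding protein metallothionein 1, was the member of this antioxidant group with the largest response to diet: it rose 10.8-fold in wild type and 5.06-fold in progeroid livers when food was restricted, values from its brighter probe set; a dimmer one gave 1.90-fold in wild type livers, which did not pass the test, and 3.31-fold in progeroid livers, which did. The enzymes that remove superoxide and hydrogen peroxide differed by at most 1.33-fold in any of 6 pairwise comparisons of the groups, each gene read from its brightest probe set. The group was chosen as the array probe sets whose single gene symbol is Sod1, Sod2, Cat, Gpx1, Gpx4, Prdx1, Prdx3, Prdx6, Mt1 or Mt2. This gave 16 probe sets for 8 of the 10 genes, out of 28898 probe sets with a single symbol for 17097 genes. No probe set was named Prdx6 or Mt2 here, so neither gene has a value.

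The livers came from 20 mice aged 11 weeks, all hybrids of C57BL6J and FVB parents, with 5 mice per group and 1 array per mouse. Wild type mice and littermates of genotype Ercc1Δ/- were fed either the control diet or a restricted amount. Ercc1 is a subunit of a nuclease of DNA repair. Mice of genotype Ercc1Δ/-, called progeroid in the labels, took the Δ allele from an Ercc1Δ/+ parent and the other altered allele from an Ercc1+/- parent, so the defect was inherited and not confined to hepatocytes. All mice were raised on AIN93G synthetic pellets. The cut in food was 10% at 7 weeks and 30% by 9 weeks, and restricted wild type mice then received 2.1 g per day where freely fed ones ate 3.0 g. Food was offered just before the dark period. The labels used here give neither the hour at which livers were taken nor the sex of the animals, and they name no batch.

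Superoxide is turned into hydrogen peroxide by superoxide dismutases, Sod1 with copper and zinc mainly in the cytosol and Sod2 with manganese in mitochondria. Hydrogen peroxide is then removed by catalase in peroxisomes, by the selenium enzymes of the glutathione peroxidase family and by peroxiredoxins, which draw on thioredoxin. Metallothioneins are small cysteine-rich proteins that bind zinc and copper and can also scavenge oxidants; in liver their genes are known to respond to metals, glucocorticoids, fasting and inflammation, and the transcription factor MTF1 acts on them through metal response elements.

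The promoter sequences of Mt1, of its relative Mt2 and, for contrast, of Prdx3 are shown because Mt1 and Prdx3 were the members that rose in restricted wild type livers. Each runs 5′ to 3′ from 250 bases before to 50 bases after a start of the gene in a RefSeq promoter table, in build GRCm38.p6. For Mt2 and Prdx3 this start is that of the gene record. For Mt1 it lies 206 bases downstream of where the gene record begins, at position 94178883. The Mt1 window begins at 94178839, so it covers only a short stretch before that outer start. Capitals mark the core letters of metal response elements, searched on both strands as TGCACNC or TGCGCNC.
Mt1 (chr8:94178839-94179138, plus strand): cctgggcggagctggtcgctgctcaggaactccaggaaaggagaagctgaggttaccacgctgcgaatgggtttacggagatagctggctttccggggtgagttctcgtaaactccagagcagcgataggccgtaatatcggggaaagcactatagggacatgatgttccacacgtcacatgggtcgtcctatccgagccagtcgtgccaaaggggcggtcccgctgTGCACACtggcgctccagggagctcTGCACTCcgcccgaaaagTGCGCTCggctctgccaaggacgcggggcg
Mt2 (chr8:94172368-94172667, plus strand): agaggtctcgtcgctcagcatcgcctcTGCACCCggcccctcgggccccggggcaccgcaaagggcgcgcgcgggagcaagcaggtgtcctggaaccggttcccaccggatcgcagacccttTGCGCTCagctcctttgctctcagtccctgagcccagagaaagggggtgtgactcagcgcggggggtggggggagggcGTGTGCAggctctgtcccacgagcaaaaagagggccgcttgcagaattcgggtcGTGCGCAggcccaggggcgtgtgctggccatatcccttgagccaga
Prdx3 (chr19:60874489-60874788, minus strand): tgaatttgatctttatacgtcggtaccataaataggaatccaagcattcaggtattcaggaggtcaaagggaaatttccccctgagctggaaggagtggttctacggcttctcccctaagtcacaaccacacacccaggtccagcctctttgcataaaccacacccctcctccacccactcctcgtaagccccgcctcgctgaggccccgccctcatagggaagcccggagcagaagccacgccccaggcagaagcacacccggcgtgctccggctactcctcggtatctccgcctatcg

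The printed Mt1 window held 3 such cores, and 1 of them overlapped a GC box (GGGCGG). The Mt2 window held 4, and the windows of the other 7 members with a promoter sequence, Prdx3 among them, held none. At least 1 core was found in 25.7% of 32851 windows of this length, at least 3 in 1.97% and at least 4 in 0.517%. The core of the antioxidant response element (TGACNNNGC) was found in the windows of Sod1, Prdx1 and Mt2, and in 12.4% of all windows. A match describes letters only, and these arrays do not measure binding at any of them.

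The arrays agreed closely, with correlations between 0.979 and 0.996 across probe sets. Values are on the log2 scale of RMA, which subtracts background, gives every array an equal distribution of signal and combines the probes of a set, so a shift shared by most genes would not be seen. Ercc1 lay between 6.04 and 6.62 in the wild type arrays and between 4.49 and 5.55 in the progeroid arrays, although 2 of its 4 probe sets were flat, with wild type control means of 4.83 and 4.59. Their place relative to the altered exons was not tested. All 10 hepatocyte markers had group means of at least 5 in every group. Where a gene had several probe sets, the brightest on average stood for it. Differences were tested with limma over all 17097 genes, and a gene is said to rise or fall at a Benjamini-Hochberg adjusted p under 0.05. The labels describe separate animals, so the spread within a group includes that between mice.

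In restricted wild type livers Mt1 and Prdx3 rose, and Cat and Gpx1 fell. The other 4 members did not pass the test. Across all genes tested, 22.5% passed in this comparison (9.92% rose and 12.6% fell), set beside 4 of the 8 members (2 rose and 2 fell). In restricted progeroid livers Mt1 alone of the 8 passed, against 12% of all genes (6.94% rose and 5.07% fell). In that comparison the groups overlapped for each of the 8 members, and they did not overlap for 8.97% of all genes. The median difference over the 8 members was 0.043 in wild type and 0.063 in progeroid livers, beside -0.030 and -0.014 over all genes. Both of these comparisons were made with separate animals and share no array.

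Mt1 was low in every freely fed wild type liver and high in every restricted one. The 5 control values were 8.18, 8.47, 9.26, 9.60 and 10.17, with a mean of 9.14 ± 0.82 (SD, n = 5). The 5 restricted values were 11.76, 12.10, 12.73, 13.08 and 13.18, with a mean of 12.57 ± 0.62 (n = 5). The groups did not overlap, as was the case for 15.7% of all genes in this comparison. The difference was 3.44 ± 0.51 (SE; adjusted p = 5.37e-05), which placed Mt1 at rank 13 among the largest rises of the 17097 genes. Over 19 alternative settings it lay between 0.93 and 3.69, and the lowest of these, from the dimmer probe set, was not called (adjusted p = 0.128).

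In progeroid livers Mt1 was also higher under restriction, with a wider spread. The control values were 8.30, 8.74, 8.76, 10.26 and 10.96 (mean 9.40 ± 1.14, SD, n = 5). The restricted values were 10.95, 11.10, 11.19, 12.55 and 12.93 (mean 11.74 ± 0.92, n = 5). The highest control liver, from animal 325, was level with the lowest restricted liver, from animal 368, so the groups touched while the other 4 restricted livers lay above every control. The difference was 2.34 ± 0.51 (SE; adjusted p = 0.00444), rank 15 among all rises.

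**Figure D1:**
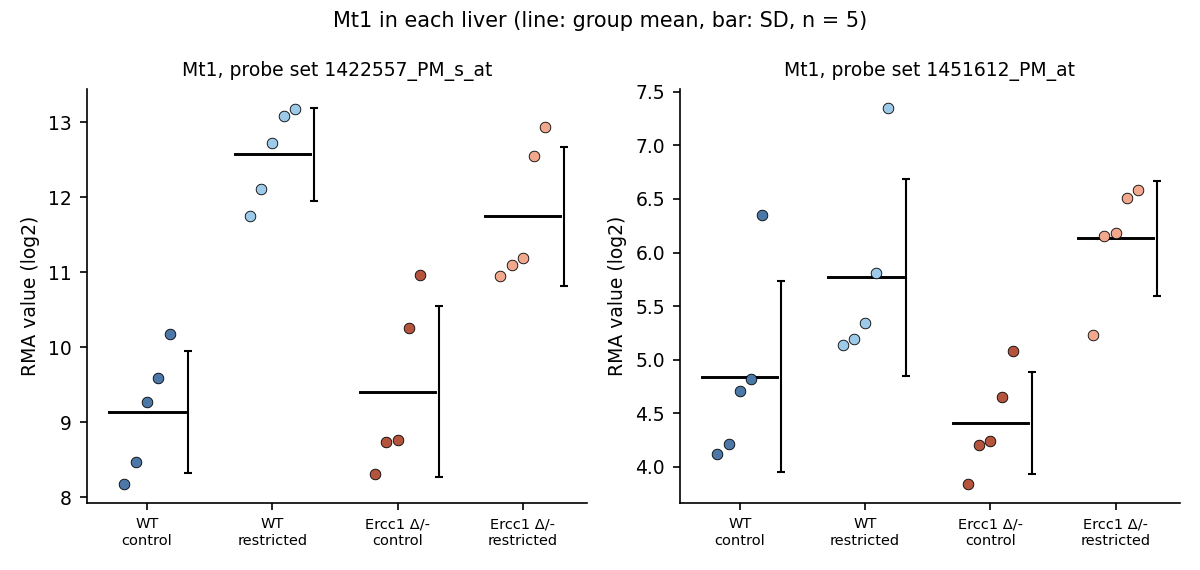
RMA values (log2) of the Mt1 probe sets in each of the 20 livers, by genotype and diet; points are animals, lines are group means and bars are SD (n = 5). In the left panel every restricted liver but that of animal 368 lies above every control liver, and the dimmer probe set on the right rises by 1.73 in progeroid and 0.93 in wild type livers.

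Genotype did not separate Mt1 on either diet. Progeroid livers were higher by 0.27 ± 0.51 (adjusted p = 0.805; 95% interval -0.79 to 1.32) on the control diet and differed by -0.83 ± 0.51 (adjusted p = 0.296; -1.88 to 0.23) on the restricted diet. The response to restriction differed by -1.10 ± 0.71 between progeroid and wild type livers, with a 95% interval from -2.59 to 0.39 (adjusted p = 0.522). These intervals are wide, and a p that misses the threshold does not show that the genotypes responded alike. On the brighter probe set the group means ran from wild type control through progeroid control and progeroid restricted to wild type restricted. Only the step between the middle pair exceeded the spread within groups. With the dimmer probe set this order did not hold. Both genotype differences changed sign there, to -0.44 on the control diet and 0.36 on the restricted diet, and neither passed.

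Mt1 varied more between animals of a group than most genes. Its pooled SD within groups was 0.90, against a median of 0.14 over all genes, and 99.8% of genes had an SD no larger. The enzyme members had pooled SDs below that median, from 0.059 (Sod1) to 0.13 (Prdx3).

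The second Mt1 probe set was dim and gave a smaller rise. In progeroid livers it went from 4.40 ± 0.48 to 6.13 ± 0.54 (SD, n = 5) without overlap, and it rose 3.31-fold (log2 difference 1.73 ± 0.42 SE; adjusted p = 0.0104 over all 28898 probe sets, of which 10.2% passed). In wild type livers it went from 4.84 ± 0.90 to 5.77 ± 0.92 and did not pass (0.93 ± 0.42; adjusted p = 0.127). The groups overlapped there: animal 402 of the control group was at 6.35 and animal 422 of the restricted group at 7.35, while the other 8 livers lay between 4.12 and 5.81. The probe set used for the main values ends in _s_at, a suffix for probe sets that may detect more than 1 transcript, and without such probe sets the wild type rise of Mt1 is 0.93 with an adjusted p = 0.128. On this dimmer probe set the diet effect was 0.80 ± 0.59 larger in progeroid livers (adjusted p = 0.593; 0.962% of all probe sets passed), the opposite sign to the brighter one.

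The genes whose values over the 20 arrays were most like those of Mt1 were Fmo2, a flavin-containing monooxygenase (Pearson r = 0.919), Retreg1, an endoplasmic reticulum autophagy receptor (0.911), and Hipk3, a protein kinase (0.906). Fmo2 was higher under restriction by 4.23 in wild type and by 2.80 in progeroid livers on the log2 scale. These correlations are a description over arrays that share the same 4 groups and the same normalisation.

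Metallothionein binds zinc and copper, and a list of zinc and copper handling genes, with Mtf1 and Slc30a10 among them, was mixed under restriction. Of 30 measured, 2 rose and 3 fell in wild type livers, and 2 rose and 6 fell in progeroid livers, with median differences of -0.097 and -0.11. The shares over all genes were 9.92% and 12.6% in wild type, and 6.94% and 5.07% in progeroid livers. Of the 30, 6 had means under 5 in every group. Mtf1, which encodes the metal-sensing activator of metallothionein genes, rose in both: by 0.40 ± 0.093 in wild type (1.32-fold; adjusted p = 0.00334) and by 0.35 ± 0.093 in progeroid livers (1.27-fold; 0.0174). Slc39a3, a zinc importer, rose by 0.50 ± 0.086 and 0.28 ± 0.086 (adjusted p = 0.000238 and 0.0354). Among the genes that fell were Slc30a10, a manganese exporter (-1.02 ± 0.23 in progeroid livers, adjusted p = 0.0064), and Slc39a9 (-0.31 ± 0.065 in wild type livers). Slc30a1, the zinc exporter that is itself a classical MTF1 target, differed by 0.05 ± 0.081 in wild type (adjusted p = 0.733) and -0.23 ± 0.081 in progeroid livers (0.0756).

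The next lists describe glucocorticoid-induced, acute phase and circadian clock genes in the same livers. For all 3 lists the background is that 9.92% of all genes rose and 12.6% fell under restriction in wild type livers. In progeroid livers 6.94% rose and 5.07% fell. Of 14 glucocorticoid-induced genes, 4 rose and 0 fell under restriction in wild type livers, and 6 rose and 0 fell in progeroid livers. Fkbp5, a chaperone induced by glucocorticoids, rose 3.66-fold (1.87 ± 0.33; adjusted p = 0.00033) and 2.84-fold (1.51 ± 0.33; 0.00493), and Per1, which belongs to the clock as well, 2.63-fold and 5.17-fold. Of 17 acute phase genes, 3 rose and 4 fell in wild type and 2 rose and 2 fell in progeroid livers; the serum amyloid gene Saa1 fell 5.51-fold and 2.71-fold, whereas Lcn2 rose 4.17-fold in wild type livers. Of 17 circadian clock genes, 10 rose and 2 fell in wild type and 10 rose and 5 fell in progeroid livers, with Cry2 higher by 0.93 ± 0.11 and 0.92 ± 0.11. Their part in the rise of Mt1 was not tested, and without the hour of sampling a change of diet and a change of phase cannot be told apart.

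Prdx3, the peroxiredoxin of mitochondria, rose in restricted wild type livers. The control values were 10.70, 10.74, 10.84, 10.87 and 10.92, and the restricted values 11.05, 11.22, 11.22, 11.27 and 11.35. Every restricted liver lay above every control, and the gene rose 1.33-fold (0.41 ± 0.082 SE; adjusted p = 0.00111). In progeroid livers the control values were already spread from 10.82 to 11.25 around a median of 11.08, across the range of 11.06 to 11.25 seen in restricted ones, and the difference was 0.086 ± 0.082 (adjusted p = 0.563; 95% interval -0.084 to 0.26). The responses of the genotypes differed by -0.32 ± 0.12 (unadjusted p = 0.0118, limma), which did not pass over all genes (adjusted p = 0.192).

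On the control diet Prdx3 was higher in progeroid than in wild type livers by 0.24 ± 0.082 without passing (adjusted p = 0.0676). It passed with progeroid control animal 325 left out (0.28; 0.0381) or with animal 326 left out (0.30; 0.0217), the progeroid livers with the lowest values. Ordered by mean, wild type control (10.81) was followed by progeroid control (11.05), progeroid restricted (11.14) and wild type restricted (11.22), and no neighbouring pair in that order passed the test. Progeroid restricted livers were above wild type control livers by 0.32 ± 0.082 (adjusted p = 0.006) without overlap. In this comparison 3 of the 8 members passed, against 25.4% of all genes, and the groups did not overlap for 18.9% of all genes.

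Prdx3 is recharged by the mitochondrial thioredoxin Txn2 and its reductase Txnrd2, and both rose under restriction. Txn2 rose by 0.27 ± 0.058 in wild type (adjusted p = 0.00215) and by 0.22 ± 0.058 in progeroid livers (0.015). Txnrd2 rose by 0.32 ± 0.088 (0.0113) and 0.41 ± 0.088 (0.00403). In the cytosol, Txn1, which serves Prdx1, fell by 0.18 on the log2 scale in wild type livers (adjusted p = 0.0137) and differed by -0.080 ± 0.051 in progeroid livers (0.354). Of the 21 genes of glutathione and thioredoxin supply, 4 rose and 6 fell in wild type, and 5 rose and 1 fell in progeroid livers. Over all genes 9.92% rose and 12.6% fell in wild type, and 6.94% rose and 5.07% fell in progeroid livers. Gclc, the catalytic subunit of the first enzyme of glutathione synthesis, fell 1.96-fold in wild type livers (-0.97 ± 0.13; adjusted p = 2.73e-05) and differed by -0.35 ± 0.13 in progeroid livers (0.0961).

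Cat, which encodes catalase, was slightly lower in restricted wild type livers. The control values were 12.96, 12.99, 13.06, 13.09 and 13.14, and the restricted values 12.58, 12.76, 12.87, 12.90 and 12.96. Of the restricted livers 4 of 5 lay below every control, and the gene fell 1.18-fold (-0.24 ± 0.07 SE; adjusted p = 0.0193). A second probe set of Cat separated the groups fully and fell 1.21-fold (-0.28 ± 0.057; adjusted p = 0.00142 over all probe sets, of which 21% passed). With the main probe set the call was lost without wild type restricted animal 424, the lowest liver (-0.18; adjusted p = 0.0596), without wild type control animal 404 (-0.21; 0.0525), and when only the 10 wild type arrays were fitted (adjusted p = 0.0516). In progeroid livers the values were 12.93 to 13.14 on the control diet and 12.89 to 13.11 under restriction, a difference of -0.012 ± 0.070 (adjusted p = 0.942).

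Gpx1, the abundant glutathione peroxidase of cytosol and mitochondria, was also lower in restricted wild type livers. In wild type livers the control values were 13.70, 13.77, 13.85, 13.86 and 13.88 and the restricted values 13.52, 13.60, 13.65, 13.65 and 13.71. Restricted livers were lower in all but animal 424, and the gene fell 1.14-fold (-0.18 ± 0.052; adjusted p = 0.0154). The call was lost without wild type restricted animal 423, the lowest liver (-0.16; adjusted p = 0.0506), and when only the wild type arrays were fitted (0.0556). In progeroid livers the values ran from 13.76 to 13.89 on the control diet and from 13.77 to 13.85 under restriction (0.024 ± 0.052; adjusted p = 0.834).

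Gpx1 was the member that passed between genotypes on the restricted diet, 1 of 8, where 17.2% of all genes passed (11.8% rose and 5.44% fell). All 5 progeroid livers lay above all 5 wild type livers, which 11.9% of genes did in either direction, and the gene was 1.15-fold higher (0.20 ± 0.052; adjusted p = 0.0122). Cat was higher there by 0.18 ± 0.070 without passing (adjusted p = 0.0877); it passed with wild type restricted animal 421 left out (0.22; 0.0432), when 2 members were called. The diet responses of the genotypes differed by 0.21 ± 0.074 for Gpx1 (adjusted p = 0.189) and by 0.22 ± 0.099 for Cat (0.301), so neither response was shown to depend on genotype. None of the 8 members passed this test of the difference, against 1.4% of all genes (1.03% rose and 0.374% fell). The mean of Gpx1 was above that of 99.9% of genes and the mean of Cat above that of 99.4%, on a scale whose highest value was 14.51.

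Oxidases that form hydrogen peroxide or superoxide mostly fell under restriction where they passed. Of 17 measured, 6 fell and 2 rose in restricted wild type livers, and 6 fell and 1 rose in progeroid livers. Among all genes 12.6% fell and 9.92% rose in wild type, and 5.07% fell and 6.94% rose in progeroid livers. Aox3, an aldehyde oxidase, fell 4.56-fold in wild type (-2.19 ± 0.19; adjusted p = 8.99e-08) and 1.97-fold in progeroid livers (-0.98 ± 0.19; 0.00177). Nox4, an oxidase that makes hydrogen peroxide, fell 3.49-fold (-1.80 ± 0.15; 8.13e-08) in wild type livers and 1.44-fold (-0.53 ± 0.15; 0.0283) in progeroid livers. The falls of both were smaller in progeroid livers by the test of the difference itself (adjusted p = 0.0253 and 0.00664). Peroxisome biogenesis genes, which build the compartment of catalase, had 1 of 11 higher and 3 lower in wild type and 5 higher and 0 lower in progeroid livers. Between genotypes on the restricted diet, 8 of the 17 oxidases were higher and 1 lower in progeroid livers, where 11.8% of all genes rose and 5.44% fell. On the control diet 1 oxidase was higher and 2 were lower in progeroid livers.

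Gpx4, which reduces lipid hydroperoxides in membranes, did not pass in any of the 4 comparisons of diet or genotype. Its values were 11.54 to 11.83 in wild type control, 11.75 to 11.995 in wild type restricted, 11.76 to 12.08 in progeroid control and 11.88 to 12.16 in progeroid restricted livers, with medians of 11.74, 11.84, 11.91 and 12.01. No neighbouring pair in that order passed the test. The ends of the order did not overlap, and Gpx4 was 1.24-fold higher in restricted progeroid than in wild type control livers (0.31 ± 0.076; adjusted p = 0.0044). In that comparison 25.4% of all genes passed and 18.9% did not overlap. A second probe set gave 0.32 ± 0.073 (adjusted p = 0.00346). On the control diet the genotypes differed by 0.23 ± 0.076 (adjusted p = 0.0617), which passed without progeroid control animal 326 (0.27; 0.0335) and without wild type control animal 403 (0.26; 0.0458).

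Synthesis of Gpx1 and Gpx4 needs selenocysteine, and the 12 genes of selenoprotein synthesis and transport were mixed. Under restriction 3 rose and 0 fell in wild type livers, and 1 rose and 2 fell in progeroid livers. Beside this, 9.92% of all genes rose and 12.6% fell in wild type, and 6.94% rose and 5.07% fell in progeroid livers. Eefsec, the elongation factor for selenocysteine, was lower in progeroid livers on both diets (-0.49 ± 0.14, adjusted p = 0.0237, and -0.67 ± 0.14, 0.00152). Selenbp1, a selenium-binding protein, rose by 0.62 ± 0.073 in restricted wild type livers (adjusted p = 4.15e-06).

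**Figure D2:**
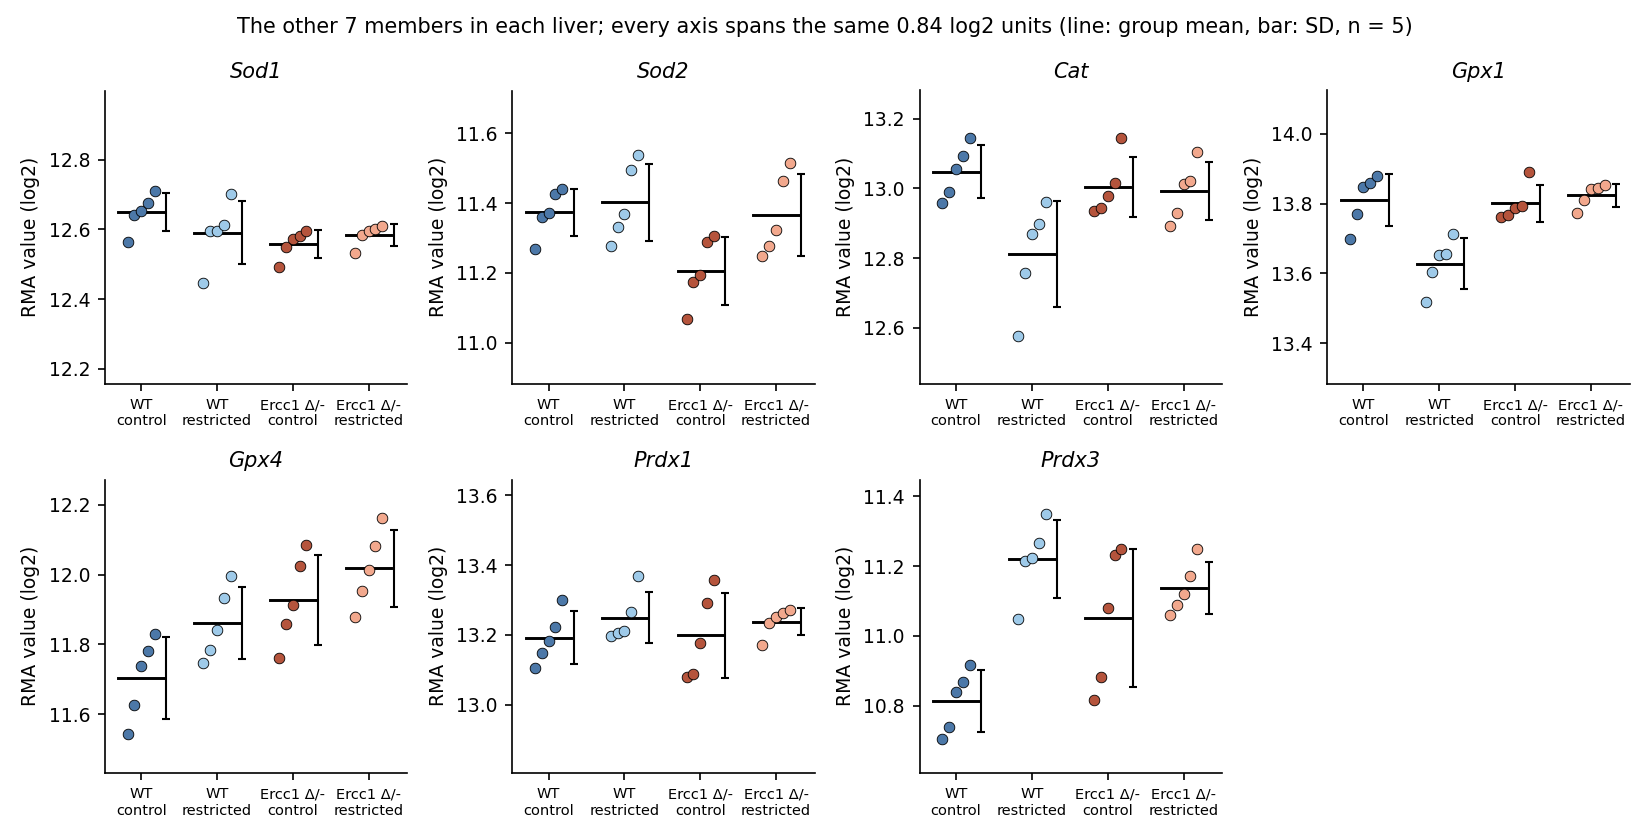
RMA values (log2) of the other 7 members in each of the 20 livers, by genotype and diet, on axes of equal span; points are animals, lines are group means and bars are SD (n = 5). Restricted wild type livers are lowest in Cat and Gpx1 and highest in Prdx3, while Sod1 and Prdx1 are nearly level across the groups.

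Sod1, the copper-zinc dismutase, was level. Its 20 values lay between 12.45 and 12.71, the group means between 12.56 and 12.65, and the differences in the 4 comparisons of diet or genotype between -0.09 and 0.026. The 95% interval of the wild type diet difference ran from -0.17 to 0.050. Ccs, the chaperone that loads copper into Sod1, differed by -0.19 ± 0.077 in the same comparison (adjusted p = 0.0923). A dimmer Sod1 probe set did not follow: it rose 1.87-fold in restricted wild type livers (0.90 ± 0.23; adjusted p = 0.00644 over all probe sets), from 5.69 to 6.48 in control and from 6.22 to 7.49 in restricted animals, and its correlation with the bright one over 20 arrays was -0.11. Where in the transcript it lies was not tested.

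Sod2, the manganese dismutase, was lowest in freely fed progeroid livers. Those values were 11.07, 11.17, 11.20, 11.29 and 11.31, and wild type control livers had 11.27, 11.36, 11.37, 11.43 and 11.44. The difference was -0.17 ± 0.069 and did not pass (adjusted p = 0.13). With restriction progeroid livers were at 11.25 to 11.51, a difference of 0.16 ± 0.069 (adjusted p = 0.146), level with restricted wild type livers at 11.28 to 11.54. Against the latter, freely fed progeroid livers were lower by an amount that passed (-0.20 ± 0.069; adjusted p = 0.0374; 27.9% of all genes passed). Of 19 alternative settings 9 did not call it. Among them were those without progeroid control animals 321, 325 or 327 or without wild type restricted animals 423, 424 or 425. The call was also lost with the mean of probe sets (-0.12, limma adjusted p = 0.139) and when only these 2 groups were fitted (0.0767). It was lost as well with the Gapdh measure of RNA quality as a covariate (-0.13, limma adjusted p = 0.103). Over all 19 the difference lay between -0.23 and -0.12 with adjusted p up to 0.139. In this comparison 4 of 8 members passed and the groups of 2 members, Gpx1 and Mt1, did not overlap, against 17.6% of all genes. The Cat call among these 4 was lost in 11 of 19 alternative settings, with limma adjusted p up to 0.151. Of the 16 member probe sets 5 passed, against 25.2% of all probe sets.

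The Sod2 probe sets fell into different patterns. A second bright one followed the first (r = 0.813 over 20 arrays), with a genotype difference of -0.096 ± 0.054 on the control diet. Another probe set, of intermediate signal, fell 1.33-fold in restricted wild type livers (-0.41 ± 0.081; adjusted p = 0.0011 over all probe sets), from 8.45 to 8.67 in control to 7.92 to 8.26 in restricted animals without overlap, and differed by -0.21 ± 0.081 in restricted progeroid livers (adjusted p = 0.118). Its correlation with the first was -0.18 over 20 arrays. With the mean of all 4 probe sets Sod2 was lower in freely fed progeroid than wild type livers (-0.22; adjusted p = 0.0202).

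Prdx1, the major cytosolic peroxiredoxin, did not pass in any comparison. On the brighter of its 2 probe sets the 20 values lay between 13.08 and 13.37, the group means between 13.19 and 13.25, and the differences between -0.051 and 0.058. The interval of the wild type diet difference ran from -0.07 to 0.19. A second probe set, with a mean of 12.16, ran from 11.84 to 12.37 and correlated with the brighter one at 0.28 over 20 arrays. With the mean of both probe sets the wild type diet difference was -0.001 (limma adjusted p = 0.992). On its brighter probe set Prdx1 varied together with Gpx4 among animals of the same group. The correlation between their deviations from the group means was 0.84 over 20 arrays, and that of Gpx4 with Prdx3 was 0.60. These were the highest among all pairs of members. The lowest were -0.53 for Gpx1 with Prdx3 and -0.45 for Cat with Prdx3. These correlations describe arrays that share normalisation and were not taken for the second Prdx1 probe set.

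**Figure D3:**
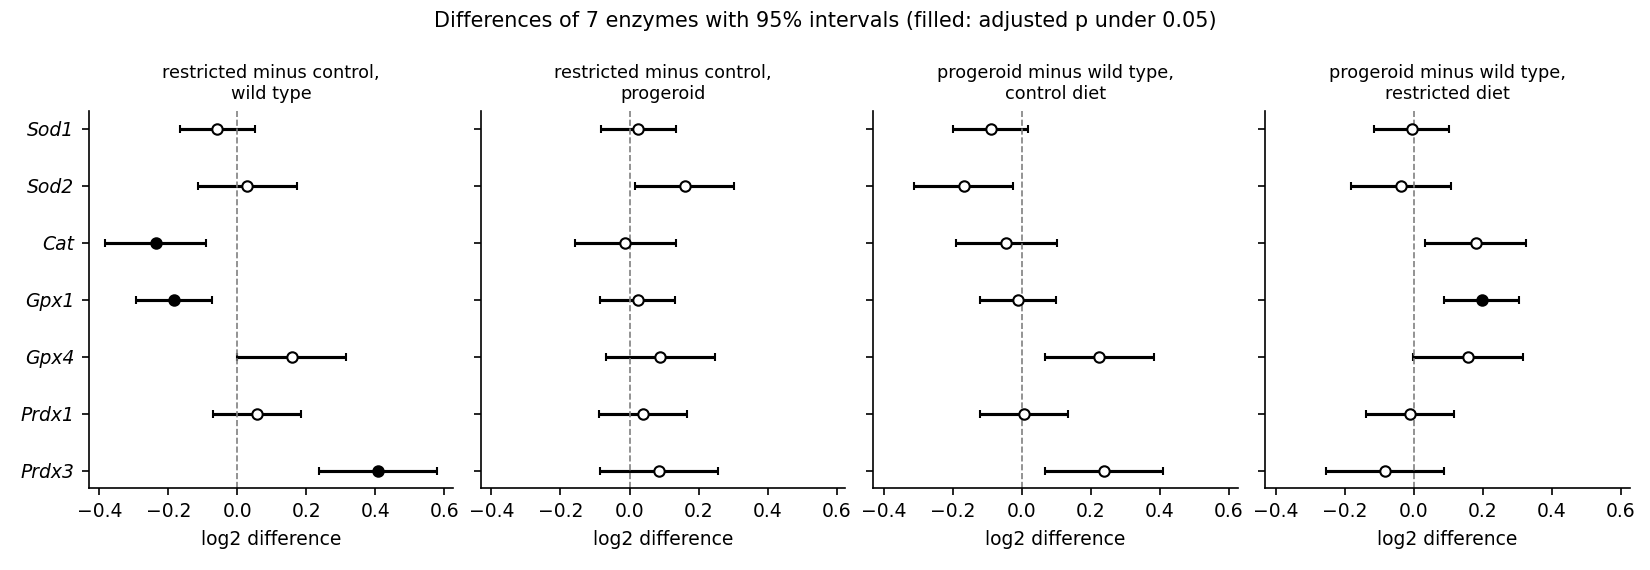
Log2 differences of the 7 enzymes in the diet and genotype comparisons with 95% intervals; filled points passed an adjusted p of 0.05. The filled points are Prdx3, Cat and Gpx1 in restricted wild type livers and Gpx1 between genotypes on the restricted diet.

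On the control diet 0 of 8 members passed between genotypes, against 11% of all genes (6.7% rose and 4.32% fell), with limma. At an unadjusted p under 0.05 there were 3 members (Sod2, Gpx4 and Prdx3). The share of all genes at that unadjusted level was not counted, so this number has no background to be set against. The groups overlapped for each of the 8, and did not overlap for 9.35% of all genes, and none of the 16 member probe sets passed on its own, against 9.11% of all probe sets. Without progeroid control animal 325, 1 member passed, without animal 326 2 passed, and without wild type control animal 403 1 passed. Other genes of the same chemistry did move: 4 of 12 further superoxide and peroxide enzymes rose in progeroid livers on the control diet and 4 on the restricted diet, and none fell. On the restricted diet 11.8% of all genes rose and 5.44% fell. Gpx7, a peroxidase of the endoplasmic reticulum, rose 1.98-fold and 2.29-fold (0.99 ± 0.15 and 1.20 ± 0.15; adjusted p = 0.000205 and 2.09e-05). Its mean was under 5 in both wild type groups, so these fold values start from a dim level. Srxn1, sulfiredoxin, which repairs overoxidised peroxiredoxins, rose 1.75-fold and 2.10-fold (0.81 ± 0.14 and 1.07 ± 0.14; 0.000426 and 1.87e-05). Under restriction Prdx4, the peroxiredoxin of the endoplasmic reticulum, fell in both genotypes (-0.39 ± 0.077 in wild type and -0.32 ± 0.077 in progeroid livers).

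RNA quality was read from the 3' minus 5' difference of the Gapdh control probe sets. Freely fed progeroid livers had 0.93 ± 0.28 and freely fed wild type livers 0.66 ± 0.061 (SD, n = 5; exact permutation p = 0.0476, two-sided, adjusted over 4 comparisons 0.19), and the diet comparisons gave exact p of 0.111 and 0.484. With it as a covariate Mt1, Prdx3, Cat and Gpx1 kept their calls in restricted wild type livers. Between freely fed progeroid and restricted wild type livers, Sod2 (-0.13, limma adjusted p = 0.103) and Cat (0.17, 0.098) lost theirs, while Gpx1 and Mt1 kept them. Beside the marker counts that follow, 9.92% of all genes rose and 12.6% fell with diet in wild type livers, and 6.94% and 5.07% in progeroid livers. Between genotypes 6.7% rose and 4.32% fell on the control diet, and 11.8% and 5.44% on the restricted diet. Of 13 Kupffer cell and macrophage markers, 4 fell in restricted wild type livers and 10 were higher in progeroid than wild type livers on the restricted diet. Their log2 summed signal there was 12.30 to 13.14 against 11.64 to 12.20. On the control diet 2 of them rose in progeroid livers, with sums of 12.40 to 13.03 against 12.16 to 12.53, and 1 rose in restricted progeroid livers. Of 11 stellate cell and fibroblast markers, 4 rose in progeroid livers on each diet, and 3 rose and 2 fell in restricted wild type livers. Their sums were 12.05 to 12.46 in wild type control, 12.38 to 12.62 in wild type restricted, 12.70 to 12.86 in progeroid control and 12.47 to 12.93 in progeroid restricted livers, so the genotypes did not overlap on the control diet. Of 9 neutrophil and monocyte markers, 2 rose in progeroid livers on each diet and none passed with diet; the sums of progeroid livers (7.67 to 7.98 on the control diet and 7.49 to 8.11 restricted) lay above those of wild type livers (7.15 to 7.25 and 7.22 to 7.37), and 8 of the 9 were under 5 in every group. Of 8 endothelial markers 1 rose in progeroid livers on the restricted diet and 1 fell in restricted wild type livers; of 7 lymphocyte markers, all under 5, 1 fell in each diet comparison; and of 5 cholangiocyte markers, all under 5, none passed. Of the 6 erythroid markers 1 fell in each diet comparison, and their summed signal overlapped between all groups (11.49 to 14.12); Hba-a2, Slc4a1 and Epb42 were under 5 in each. In bulk liver, fewer cells of a type and less RNA per cell cannot be told apart, and the part of these cells in the members' values was not tested.

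**Figure D4:**
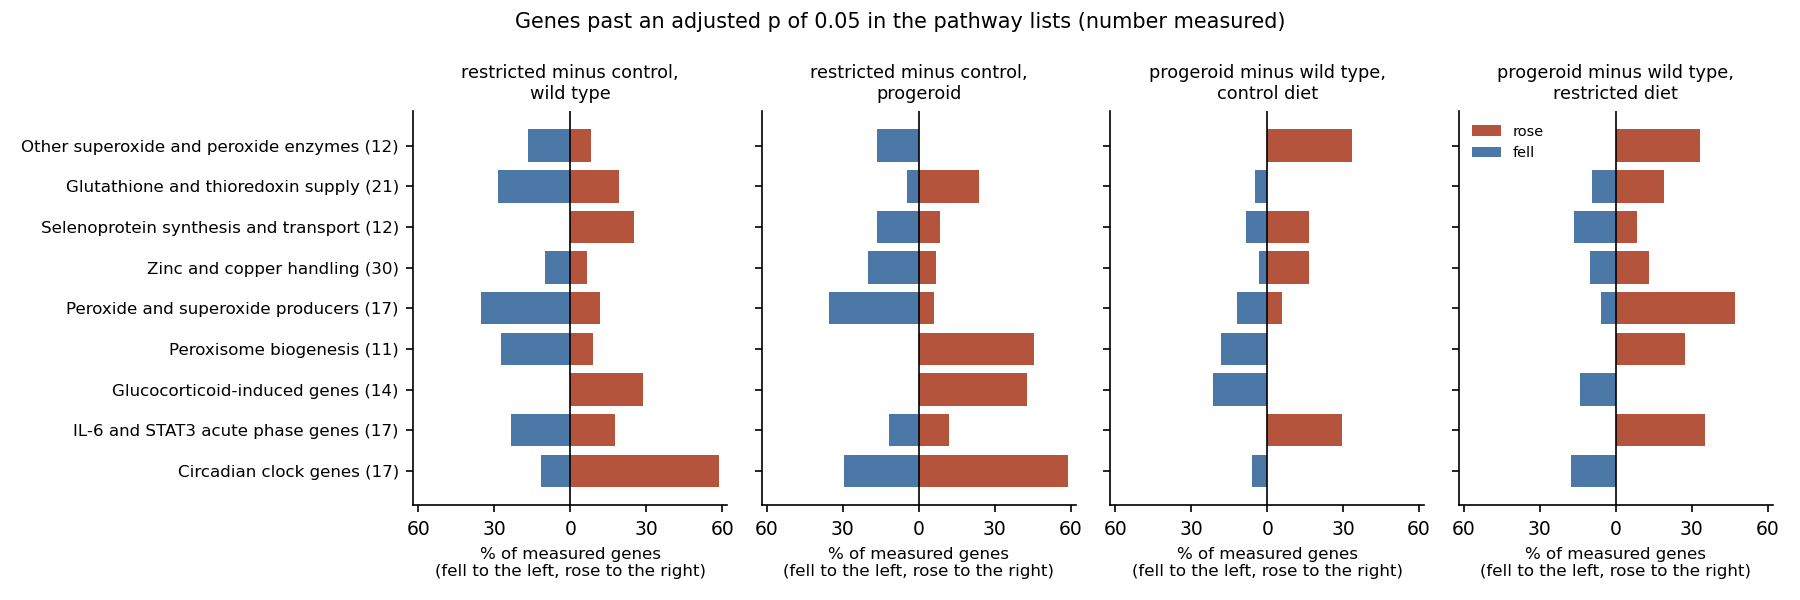
Share of measured genes in each pathway list that rose (right) or fell (left) at an adjusted p under 0.05 in the diet and genotype comparisons; the number measured stands after each name. Clock genes have the largest share under restriction in both genotypes, 10 of 17 higher.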

How the data were processed

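Total RNA of 20 livers was hybridised to Affymetrix arrays, 1 per animal. The deposited values are log2 expression per probe set made by the authors with RMA, which the submitters' processing notes name without a version. The table holds 45141 probe sets, and array medians lay between 4.17 and 4.21. Precision is limited by having 5 arrays per group, among other things, and probe sets of a gene can disagree. Genes were named from the platform annotation, with 28898 probe sets carrying 1 symbol (28689 of them found by Entrez ID in a RefSeq table of GRCm38.p6, with 0 symbols changed), 551 several and 15588 none; the 104 control probe sets were left out. Dim probe sets were kept, and all 8 measured members had a mean of at least 5.

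The 4 group means were estimated from the 20 arrays together in R 4.3.3 with limma 3.58.1 (lmFit, then eBayes), which left 16 residual degrees of freedom, and 7 contrasts were taken: the 6 pairs of groups and the difference of diet effects. P-values are two-sided and adjusted by Benjamini-Hochberg within a contrast. The fitting code was tested on simulated data. The members, the 9 pathway lists and the 8 marker lists were chosen with earlier results of these data known. Named genes are the members and, from each pathway list and each diet or genotype comparison, up to 2 that rose and 2 that fell with the smallest adjusted p; Slc30a1, Ccs and Txn1, values of a named gene in another comparison, and genes named for a difference of diet effects were added after their values were seen. Likeness was Pearson's r over 20 arrays. Alternatives were median centring, quantile normalisation, other probe set rules, a filter at a mean of 5, trend and robust moderation, fits to the compared groups only, the Gapdh covariate and leaving out each animal.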

Additional observations from a re-analysis of the deposited data

Results flagged for a closer look

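Gpx1 was 13.89 in progeroid control animal 326, while the other 4 livers of that group lay between 13.76 and 13.79, and this animal stood apart from the rest of its group by the Dixon criterion. Of 64 groups of member values tested this was the only 1, where chance gives about 3.2. Without that animal Gpx1 in freely fed progeroid livers was no longer above restricted wild type livers by the test (0.15; limma adjusted p = 0.0524).

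Among the pathway lists, 7 genes had diet effects that differed between genotypes by the test of the difference itself, as progeroid minus wild type on the log2 scale: Nox4 (1.27 ± 0.22 SE; limma adjusted p = 0.00664), Aox3 (1.21 ± 0.27; 0.0253), Pex11a, a peroxisome division factor (0.85 ± 0.18; 0.0253), Maob, monoamine oxidase B (0.37 ± 0.084; 0.0298), Selenbp1 (-0.52 ± 0.10; 0.0178), Selenbp2 (-0.60 ± 0.15; 0.0496) and Lcn2 (-1.50 ± 0.36; 0.0413). Across all genes 1.4% passed this test, and 0 of the 8 members did, with limma. At an unadjusted p under 0.05 there were 3 members (Cat, Gpx1 and Prdx3), and the share of all genes at that level was not counted.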

How the results depend on the processing

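Of the calls for single members, those of Mt1 in progeroid livers, Prdx3 in wild type livers and Gpx1 between genotypes under restriction held in each of 19 alternatives. Their ranges were 1.73 to 2.73, 0.37 to 0.45 and 0.17 to 0.22. Prdx3 and Gpx1 have 1 probe set each, so the other probe set rules could not change their estimated differences. The call of Mt1 in wild type livers held in 18 of 19, with a range of 0.93 to 3.69 and adjusted p up to 0.128, reached without suffixed probe sets. Sod1 in restricted wild type livers turned to a rise of 0.42 with the mean of its probe sets, because its dimmer probe set then counts equally. Counts of members past the threshold moved as follows. For progeroid against wild type on the control diet (0 members), there was 1 with the mean of probe sets, 2 with the filter at a mean of 5, 1 with trend and robust moderation, and 0 to 2 when single animals were left out. On the restricted diet (1 member) leaving out animals gave 1 to 2. For wild type diet (4 members) fitting only those groups left 2, Prdx3 and Mt1, and leaving out animals gave 3 to 4. For progeroid control against wild type restricted (4 members) fitting only those groups left 1, the Gapdh covariate 2, and leaving out animals 1 to 4. Among all genes, the difference of diet effects was called for 240, for 137 with the Gapdh covariate and for 103 to 490 when animals were left out. Testing every probe set on its own called 6061 probe sets for wild type diet, beside 3842 genes, and 7292 beside 4767 for progeroid control against wild type restricted. No paired analysis was possible because the groups share no animal numbers. The dimmer Mt1 probe set lay below 5 on average in freely fed livers, and the 5 animals per group limit the precision of each difference.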
